A study of Mus musculus with 8 samples.

Results

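Fibro-adipogenic progenitors (FAPs) are the resident mesenchymal cells of skeletal muscle, and their RNA was followed here through 10 marker genes measured in the tibialis anterior (TA) muscle of aged mice. The 10 markers are *Pdgfra*, *Pdgfrb*, *Ly6a*, *Cd34*, *Pi16*, *Dpp4*, *Thy1*, *Smoc2*, *Gsn* and *Clec3b*, taken by symbol from the 16686 genes with counts, and all 10 passed the filter on low counts that left 12542 genes for testing. The libraries came from 8 male mice on the FVBN background, each labelled with an age of 22 months. Of these, 4 were wild type (WT) and 4 were homozygous for a germline deletion of *Mybpc2* (C2-/-), the gene of fast myosin-binding protein C, in which a Neo cassette took the place of coding exons. The deletion is present in every cell of the animal and throughout life, no treatment is labelled for either group, and there was 1 library per mouse, each from bulk muscle RNA.

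FAPs lie between the muscle fibres, outside the basal lamina, and are identified by the receptor tyrosine kinase PDGFRα together with the surface proteins SCA-1 and CD34. They secrete factors that act on satellite cells, they are a main source of collagen in injured and diseased muscle, and they can form adipocytes and myofibroblasts. In bulk RNA, more cells of a type and more RNA per cell cannot be told apart, so the markers give the amount of FAP marker RNA in the muscle and not a count of cells. The comparison asked how FAP marker RNA differed between the genotypes, and whether collagen RNA differed by more than the markers did.

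The promoters of the members with the highest level, with the defining receptor and with the classical surface antigen are shown because the results below turn on *Gsn*, *Pdgfra* and *Cd34*. RefSeq held a promoter for 5 of the 10 members (*Cd34*, *Gsn*, *Dpp4*, *Pdgfra* and *Pi16*). Each line gives the 250 bases before a RefSeq transcript start, 5′ to 3′ in GRCm38.p6, and capitals mark matches on either strand to the GC box (GGGCGG) and to the E-box (CANNTG). The *Pdgfra* window is chr5:75152001-75152250, the *Gsn* window before its first start is chr2:35256109-35256358 and the *Cd34* window is chr1:194938571-194938820, all on the plus strand. The *Pdgfra* window lies before the start given in the promoter table and inside the longer interval that the deposited table gives for the gene.
Pdgfra: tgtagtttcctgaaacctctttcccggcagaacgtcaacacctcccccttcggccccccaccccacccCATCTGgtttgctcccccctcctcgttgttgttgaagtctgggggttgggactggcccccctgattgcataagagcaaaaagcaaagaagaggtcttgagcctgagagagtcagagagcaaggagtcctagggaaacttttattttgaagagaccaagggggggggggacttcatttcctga
Gsn: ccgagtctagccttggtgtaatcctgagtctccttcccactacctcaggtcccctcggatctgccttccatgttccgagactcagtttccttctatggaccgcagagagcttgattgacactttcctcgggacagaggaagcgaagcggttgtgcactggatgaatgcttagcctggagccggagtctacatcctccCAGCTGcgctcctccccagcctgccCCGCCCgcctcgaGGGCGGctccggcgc
Cd34: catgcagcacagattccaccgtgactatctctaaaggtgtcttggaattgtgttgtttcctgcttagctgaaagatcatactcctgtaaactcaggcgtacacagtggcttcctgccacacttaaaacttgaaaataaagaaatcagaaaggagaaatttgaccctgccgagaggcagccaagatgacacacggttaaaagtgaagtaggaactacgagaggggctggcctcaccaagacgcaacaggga
The *Pdgfra* window has a GC content of 54.4% and 1 E-box, the *Gsn* window 60.8% with 2 GC boxes and 1 E-box, and the *Cd34* window 46.4% with no match. Across 32851 mouse promoters of the same length the median GC content was 52.4%, a GC box was present in 32.7% and an E-box in 66.2%. No match was common to all 3 windows.

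The knockout was checked first. In CPM, the counts relative to the library total with TMM factors, *Mybpc2* ranged from 4964 to 7392 in WT and from 3.85 to 38.3 in C2-/-, a log2 fold change of −8.82 (SE 0.94, Benjamini-Hochberg adjusted p = 0.0075, edgeR's quasi-likelihood test). The highest of the C2-/- mice, replicate 3, was at 0.67% of the WT mean. Total counts were between 25425993 and 29747692 per mouse, at which 3 counts correspond to 0.101 to 0.118 CPM. Immediate early genes, which are induced rapidly by stimulation, separated 3 mice from the other 5: *Fos* was at 70.9 CPM in WT replicate 2, 245 CPM in WT replicate 4 and 123 CPM in C2-/- replicate 2, against 0.901 to 7.8 CPM in the rest. Values without these mice are given at the end for the markers, the gene lists and collagen per *Pdgfra*.

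All 10 markers had a higher mean in C2-/- than in WT, and 0 of 10 passed the adjusted threshold in edgeR's quasi-likelihood test, where 0.0319% of all tested genes (4 of 12542) were called past 1.5-fold. The log2 fold changes ran from 0.14 for *Ly6a* to 1.01 for *Thy1*, with a median of 0.41 against −0.02 over all tested genes. A log2 fold change above 0 was found for 45.8% of all tested genes. An unadjusted p under 0.05 with a higher level in C2-/- was reached by 4 of the 10 (*Pdgfrb*, *Thy1*, *Gsn* and *Clec3b*) and by 3.38% of all tested genes, and 1.91% of all genes were lower at the same threshold, none of them a marker. In 2 of the 10 (*Gsn* and *Clec3b*) every C2-/- mouse was above every WT mouse, which held for 2.03% of all tested genes.

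**Figure D1:**
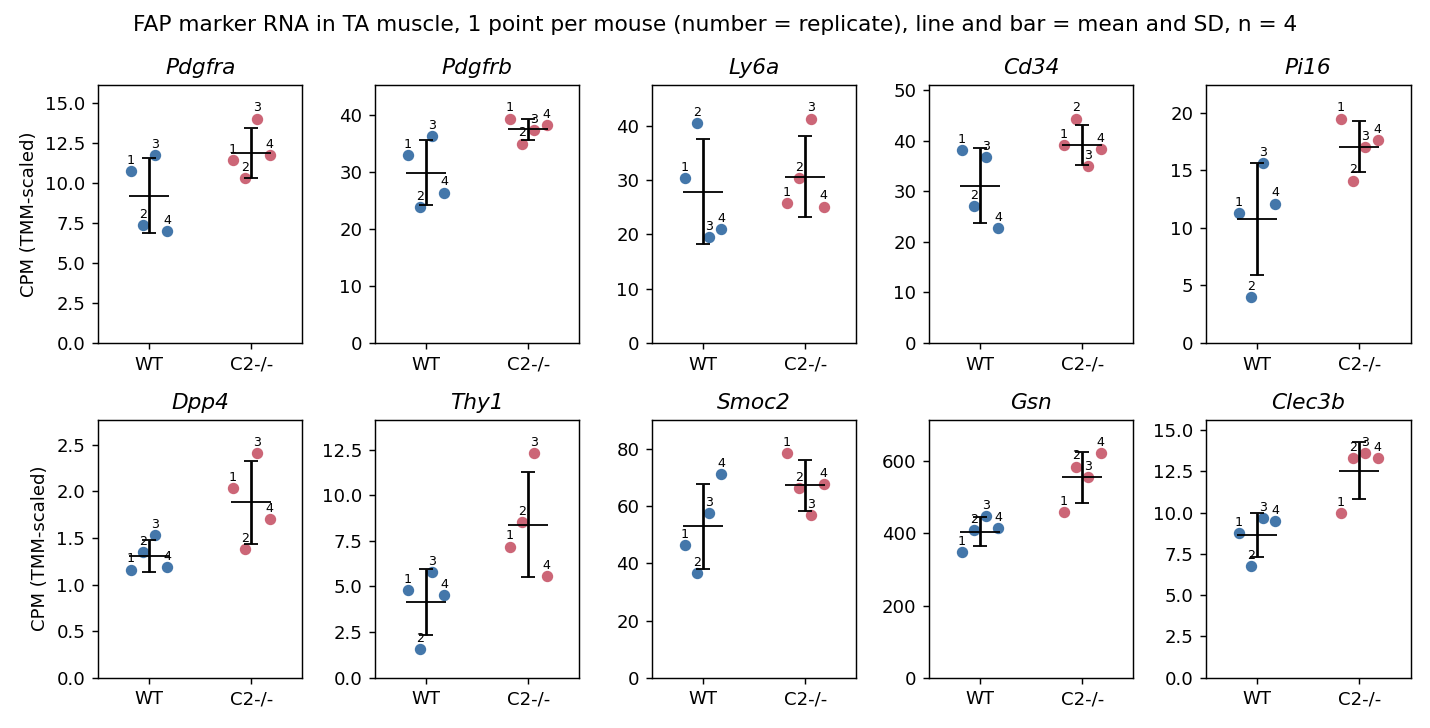
RNA level of each FAP marker (CPM, y axis starting at 0) in 4 WT and 4 C2-/- mice, with 1 point per mouse numbered by replicate, and the mean and SD as line and bar. The groups are separate for *Gsn* and *Clec3b* and overlap for the other 8 markers, and WT replicate 2 is lowest of its group for 5 of the 10.

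*Pdgfra* (chr5:75151400-75198211, plus strand), which encodes the receptor that defines FAPs, was at 10.7, 7.37, 11.7 and 6.99 CPM in WT replicates 1 to 4 and at 11.4, 10.3, 14 and 11.7 CPM in C2-/- replicates 1 to 4. WT replicates 2 and 4 were below every C2-/- mouse, while WT replicates 1 and 3 lay within the range of the knockouts. The mean was 9.17 ± 2.34 CPM in WT and 11.9 ± 1.57 CPM in C2-/- (SD, n = 4 each), a log2 fold change of 0.37 (SE 0.19) that did not pass the test (adjusted p = 0.968, unadjusted p = 0.0792, edgeR's quasi-likelihood test). *Pdgfrb* (chr18:61045150-61085067, plus strand), the related receptor that FAPs share with pericytes and smooth muscle, was at 33, 23.9, 36.3 and 26.4 CPM in WT and at 39.4, 35, 37.4 and 38.3 CPM in C2-/-. The same WT mice, replicates 2 and 4, were the low ones, and WT replicate 3 lay above the lowest knockout. Its mean was 29.9 ± 5.77 CPM in WT and 37.5 ± 1.84 CPM in C2-/- (SD, n = 4 each), a log2 fold change of 0.33 (SE 0.14, unadjusted p = 0.0443, adjusted p = 0.922, edgeR).

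No difference was resolved for the ligands of these receptors. All 4 PDGF ligand genes (*Pdgfa*, *Pdgfb*, *Pdgfc* and *Pdgfd*) were tested, and their log2 fold changes ran from −0.09 to 0.00 with a median of −0.02 (lowest unadjusted p = 0.751, edgeR). Summed over the 4 genes, the ligands were at 61.3 to 97.7 CPM in WT and 67.4 to 77.4 CPM in C2-/-.

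Among the surface antigens, *Ly6a* (chr15:74994877-74998031, minus strand), which encodes SCA-1, was at 30.3, 40.5, 19.5 and 21 CPM in WT and at 25.7, 30.4, 41.3 and 25.1 CPM in C2-/-. The groups overlapped over nearly their whole range, and WT replicate 2, the lowest mouse for many other markers, was the highest WT mouse here. The log2 fold change of 0.14 (SE 0.25, unadjusted p = 0.587, edgeR) became −0.04 without C2-/- replicate 3. *Cd34* (chr1:194938821-194961292, plus strand), a sialomucin of progenitor and endothelial cells, was at 38.1, 27, 36.7 and 22.7 CPM in WT and at 39.1, 44.4, 35 and 38.3 CPM in C2-/-. As for the receptors, WT replicates 2 and 4 were low and the other WT mice lay among the knockouts (log2 fold change 0.33, SE 0.17, unadjusted p = 0.0818, edgeR). *Thy1* (chr9:44043384-44048579, plus strand), a glycosylphosphatidylinositol-anchored protein of fibroblasts that is also found on T cells and neurons, had the largest estimate among the markers. It was at 4.78, 1.57, 5.79 and 4.52 CPM in WT and at 7.19, 8.52, 12.3 and 5.58 CPM in C2-/-. C2-/- replicate 4 lay below WT replicate 3, and every other knockout lay above every WT mouse. The mean was 4.17 ± 1.82 CPM in WT and 8.39 ± 2.85 CPM in C2-/- (SD, n = 4 each), with a log2 fold change of 1.01 (SE 0.36, unadjusted p = 0.0185, adjusted p = 0.845, edgeR). *Cd3e*, a T cell marker, was at 0 to 0.154 CPM in WT and at 0.0757 to 0.173 CPM in C2-/-. It did not pass the filter on low counts, and the part of T cells in the *Thy1* values was not tested.

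*Pi16* and *Dpp4* mark the adventitial, less differentiated subset of fibroblasts. *Pi16* (chr17:29318796-29328903, plus strand), a peptidase inhibitor, was at 11.3, 4.01, 15.6 and 12.1 CPM in WT and at 19.5, 14.1, 17 and 17.6 CPM in C2-/-. WT replicate 2 was far below the others, and C2-/- replicate 2 lay below WT replicate 3 (log2 fold change 0.67, SE 0.32, unadjusted p = 0.0627, edgeR). Without WT replicate 2 the log2 fold change of *Pi16* was 0.40. *Dpp4* (chr2:62330073-62412318, minus strand), a serine protease of the cell surface, was the rarest marker, at 1.16, 1.35, 1.53 and 1.19 CPM in WT and at 2.04, 1.38, 2.41 and 1.7 CPM in C2-/-. The knockout values were spread more widely than the WT values, and C2-/- replicate 2 lay among the WT mice (log2 fold change 0.52, SE 0.25, unadjusted p = 0.0647, edgeR). The *Dpp4* value rests on 30 to 68 counts per mouse, and in 3 of 8 mice its deposited count was not whole.

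Of the secreted and intracellular markers, *Gsn* (chr2:35256359-35307902, plus strand), which encodes the actin-severing protein gelsolin, was at 349, 409, 448 and 415 CPM in WT and at 458, 585, 556 and 622 CPM in C2-/-. Every knockout lay above every WT mouse, with 448 and 458 CPM as the nearest values. The mean was 405 ± 41.2 CPM in WT and 555 ± 70.3 CPM in C2-/- (SD, n = 4 each), a log2 fold change of 0.45 (SE 0.13, unadjusted p = 0.0051, adjusted p = 0.64, edgeR). *Clec3b* (chr9:123150946-123157432, plus strand), which encodes the plasminogen-binding protein tetranectin, was at 8.75, 6.75, 9.67 and 9.48 CPM in WT and at 9.99, 13.3, 13.6 and 13.3 CPM in C2-/-. The groups were again separate, by a small gap between WT replicate 3 and C2-/- replicate 1 (log2 fold change 0.53, SE 0.16, unadjusted p = 0.00705, adjusted p = 0.731, edgeR). *Smoc2* (chr17:14279490-14404790, plus strand), a matricellular calcium-binding protein, was at 46.4, 36.7, 57.7 and 71.1 CPM in WT and at 78.5, 66.4, 56.8 and 67.7 CPM in C2-/-. WT replicate 4, which was low for the receptors, was second highest of the 8 mice for *Smoc2*, and the groups overlapped (log2 fold change 0.35, SE 0.19, unadjusted p = 0.104, edgeR).

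Levels were compared between markers per transcript length, in the deposited TPM values, which are scaled to transcript length and depth. In WT the order was *Gsn* (278 ± 43.7 TPM), *Ly6a* (54.4 ± 15.2), *Smoc2* (34.1 ± 10.7), *Cd34* (22.8 ± 6.61), *Clec3b* (16.8 ± 3.68), *Pdgfrb* (10 ± 2.61), *Pi16* (8.98 ± 4.51), *Thy1* (4.53 ± 2.19), *Pdgfra* (2.52 ± 0.806) and *Dpp4* (0.475 ± 0.0777), each as mean and SD over 4 mice. Only the steps from *Gsn* to *Ly6a* and from *Pdgfra* to *Dpp4* exceeded the ranges of their neighbours in WT. In C2-/- the means ran from 401 ± 63.8 TPM for *Gsn* to 0.695 ± 0.155 TPM for *Dpp4*, in the same order except that *Pi16* (14.6 ± 1.54 TPM) stood above *Pdgfrb* (13.1 ± 0.473 TPM). The defining receptor *Pdgfra*, at 3.39 ± 0.421 TPM in C2-/-, was the second rarest marker in both groups. The ranges of C2-/- mice overlapped between *Cd34* and *Clec3b*, between *Pdgfrb* and *Pi16*, between *Pi16* and *Thy1* and between *Pdgfrb* and *Thy1*.

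The markers did not vary as one block among mice of the same genotype. Of the 45 pairs of markers, the median correlation of deviations from the genotype means was 0.15 over the 8 mice. *Pi16* and *Pdgfra* had the highest median with the other 9 markers (0.54 and 0.50), and *Ly6a* had the lowest at −0.35. Of the 2 markers with separate groups, *Gsn* had a median of −0.06, the next lowest, and *Clec3b* had 0.37. WT replicate 2 was the lowest of all 8 mice in 5 of the 10 markers and in the lowest pair in 8 of 10, and no knockout was the lowest in any. C2-/- replicate 3 was the highest of all 8 in 5 markers. WT replicate 3 was the highest WT mouse in 7 markers, and its mean level over the 10 (0.00 on the log2 scale relative to all mice) came closest to the knockouts, which lay between 0.20 and 0.39.

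The genes whose pattern over the 8 mice was most like that of *Pdgfra* were *Myh1*, *Pcsk6*, *Rmi1*, *Camk2d* and *Bgn*, with Pearson correlations of log2 CPM of 0.97, 0.97, 0.96, 0.95 and 0.94 among 12532 genes. After the 2 mice farthest from the median of *Pdgfra* were left out, r was 0.83 for *Myh1*, 0.88 for *Pcsk6*, 0.99 for *Rmi1*, 0.85 for *Camk2d* and 0.50 for *Bgn*. The nearest other marker was *Pdgfrb* (r = 0.92, and 0.48 without those mice), while *Cd34* went from 0.78 to −0.80. These are descriptions over 8 mice that share the genotype difference. *Myh1*, *Pcsk6*, *Rmi1*, *Camk2d* and *Bgn* were picked as the highest of 12532 correlations, so high values are in part set by that choice. The values without 2 mice reuse mice on which these genes were picked, and cannot show whether their likeness to *Pdgfra* is real. The correlations of *Bgn*, *Pdgfrb* and *Cd34* with *Pdgfra* were lower without those 2 mice, WT replicates 2 and 4. Both mice were also high in immediate early genes.

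A further list of 17 genes of mesenchymal progenitors and fibroblasts was read beside the markers. Of the 17, 14 had a higher estimate and 3 a lower one, and none passed the adjusted threshold (edgeR). An unadjusted p under 0.05 was reached by 5, all higher in C2-/-, against 3.38% of all tested genes that were higher at that threshold. The median log2 fold change was 0.33. *Fstl1*, a secreted glycoprotein, had a log2 fold change of 0.76 (SE 0.20, unadjusted p = 0.00362, adjusted p = 0.608, edgeR). *Dpt*, which encodes dermatopontin of the matrix, had 0.48 (SE 0.14, unadjusted p = 0.00537, edgeR), and *Cd248*, a surface protein of stromal cells, had 0.58 (SE 0.18, unadjusted p = 0.00775, edgeR). These 3 genes had the smallest p of the list. In 5 of the 17, these 3 among them, the knockouts lay above every WT mouse, against 2.03% of all tested genes. Some listed genes had estimates of the other sign, among them *Osr2* at −0.27 and *Tcf7l2* at −0.07, both transcription factors of connective tissue.

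**Figure D2:**
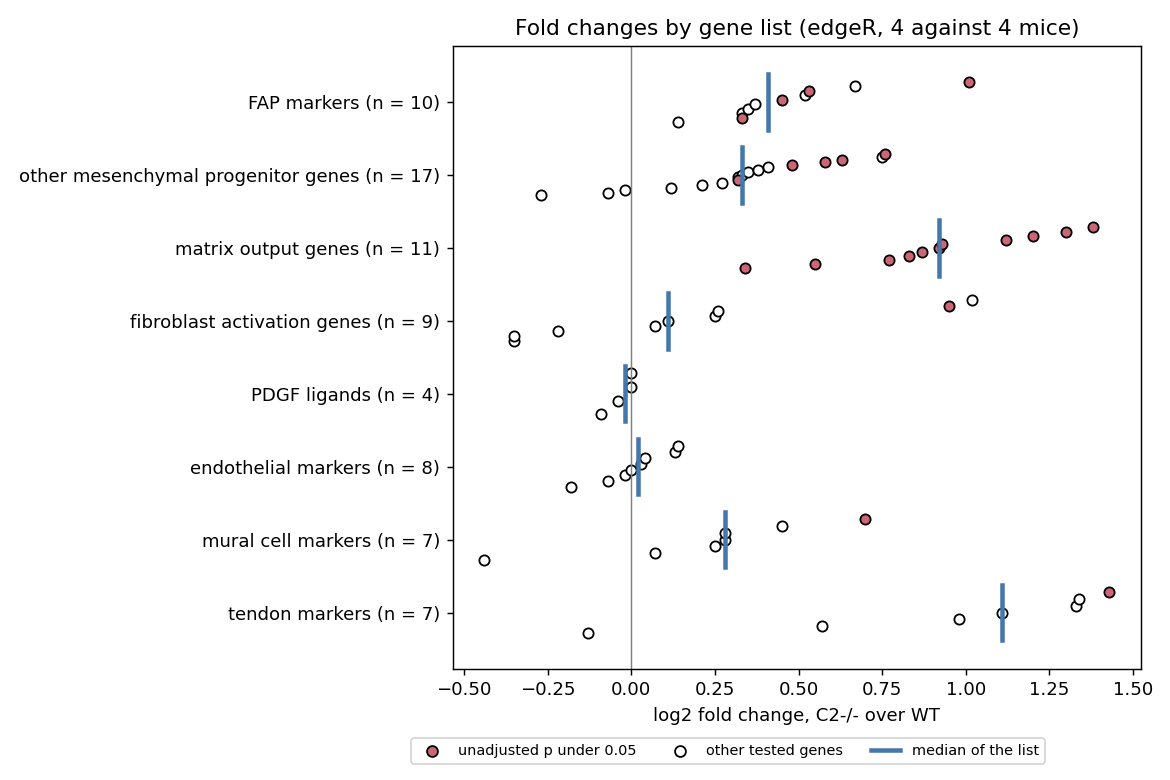
Log2 fold changes (x axis, C2-/- over WT) of the tested genes of each list, with filled points at an unadjusted p under 0.05 and blue bars at the list median. All 10 FAP markers and all 11 matrix output genes lie to the right of 0, with medians of 0.41 and 0.92, whereas PDGF ligands and endothelial markers lie on both sides of 0.

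Factors that FAPs secrete were mostly rare. Of 8 listed genes 5 were tested and 4 had a higher estimate. An unadjusted p under 0.05 was reached by 1, against 3.38% of all tested genes that were higher at that threshold. *Igf1*, the growth factor of muscle fibres and satellite cells, was at 4.55, 6.42, 5.97 and 5.14 CPM in WT and at 7.99, 10.9, 14.6 and 7.59 CPM in C2-/-. Every knockout lay above every WT mouse for *Igf1* (log2 fold change 0.89, SE 0.22, unadjusted p = 0.00234, adjusted p = 0.571, edgeR), while *Il33*, the alarmin that FAPs give to regulatory T cells, had an estimate of −0.26 (unadjusted p = 0.337, edgeR). *Gdf10*, a ligand of the BMP family made by FAPs, was at 0.511 to 4.41 CPM in WT and at 2.87 to 5.1 CPM in C2-/-, with overlapping groups.

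Genes of fibroblast activation had estimates of both signs. Of 9 tested, 6 had a higher and 3 a lower estimate, with a median log2 fold change of 0.11. The lower ones, *Lox*, *Timp1* and *Runx1*, were each highest in WT replicate 2 (14.5, 2.12 and 21.4 CPM). The other WT mice were at no more than 7.88, 0.56 and 4.34 CPM. Without the 3 mice high in immediate early genes, 8 of the 9 had a higher estimate. *Postn*, the matricellular protein periostin, had a log2 fold change of 0.95 (SE 0.34, unadjusted p = 0.0177, edgeR) at 0.766 to 2.02 CPM in WT and 2.01 to 3.55 CPM in C2-/-. *Acta2*, smooth muscle actin of myofibroblasts and vessels, had 0.25 (unadjusted p = 0.202, edgeR), and *Fap* had 0.11 (unadjusted p = 0.673, edgeR). Of the 6 adipocyte markers 4 had a higher estimate and none had an unadjusted p under 0.05; *Adipoq* had the smallest (log2 fold change 0.93, unadjusted p = 0.0521, edgeR) and *Pparg* had −0.39.

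Genes of matrix output, which encode collagens and their partners, had a median estimate above that of the markers. All 11 had a higher estimate and an unadjusted p under 0.05, against 3.38% of all tested genes that were higher at that threshold. In 9 of the 11 every C2-/- mouse was above every WT mouse, against 2.03% of all tested genes. The median log2 fold change was 0.92, and none passed the adjusted threshold (edgeR). *Col5a2*, a fibrillar collagen chain, had the smallest p of the list (log2 fold change 0.93, SE 0.22, unadjusted p = 0.00172, adjusted p = 0.571). *Serpinh1*, the collagen chaperone, had 0.55 (SE 0.14, unadjusted p = 0.00243, edgeR) and *Col6a1* had 0.83 (SE 0.22, unadjusted p = 0.00308, edgeR). The list was known to be higher in these mice when it was chosen, so its direction is no independent evidence.

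**Figure D3:**
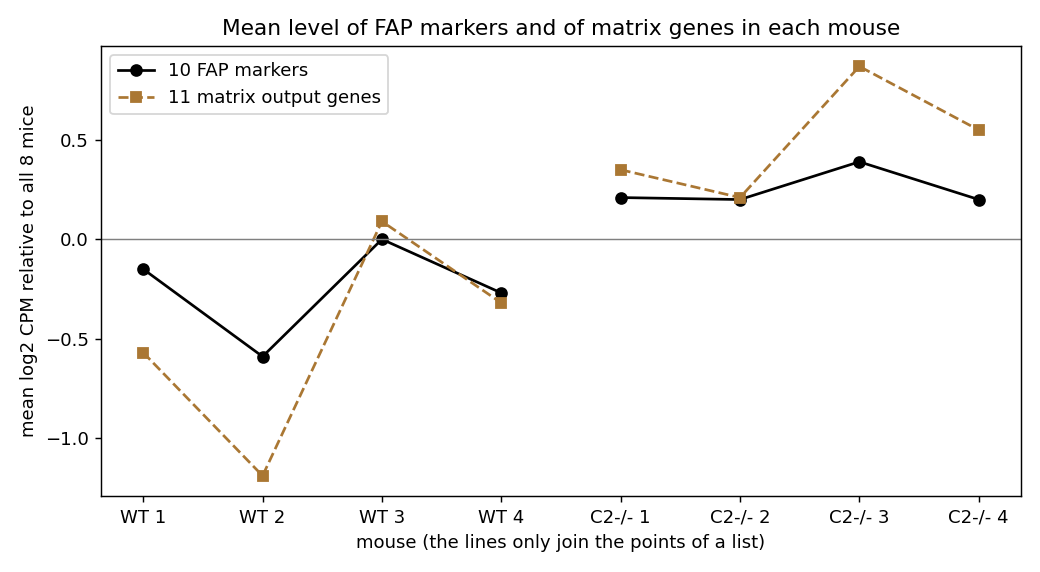
Mean log2 CPM of the 10 FAP markers (circles) and of the 11 matrix output genes (squares) in each mouse, relative to the mean over all 8 mice; lines only join the points of a list. Marker levels run from −0.59 to 0.00 in WT and from 0.20 to 0.39 in C2-/-, and matrix levels from −1.19 to 0.09 and from 0.21 to 0.87.

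The matrix level minus the marker level was also taken in each mouse. Both levels are relative to the mean of all mice, so the difference follows the larger fold changes of the matrix list. It does not measure an excess of matrix RNA in a single mouse. The difference was −0.42, −0.60, 0.09 and −0.05 in WT replicates 1 to 4 and 0.14, 0.01, 0.48 and 0.35 in C2-/- replicates 1 to 4. WT replicate 3 lay above C2-/- replicate 2, so the groups overlapped. The mouse with the lowest markers, WT replicate 2, also had the lowest matrix level, and C2-/- replicate 3 had the highest of both.

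Collagen was also expressed per unit of *Pdgfra*. The sum of *Col1a1*, *Col1a2* and *Col3a1*, the main fibrillar collagen chains of muscle, was 112, 50.8, 206 and 170 CPM in WT. In C2-/- it was 244, 242, 438 and 369 CPM, with no overlap (2.63-fold). The two-sided p was 0.0286 (exact permutation test), the smallest that 4 against 4 allows. Adjusted over 3 comparisons (the sum, its ratio to *Pdgfra*, and *Pdgfra* alone), it was 0.0858. Divided by *Pdgfra* CPM, the sum was 10.5, 6.89, 17.7 and 24.3 in WT and 21.5, 23.4, 31.2 and 31.6 in C2-/-. WT replicate 4 had a ratio above 2 of the knockouts, and the other WT mice lay below all of them. The mean log2 ratio was 3.73 ± 0.81 in WT and 4.73 ± 0.28 in C2-/- (SD, n = 4 each), a difference of 1.0 or 2.00-fold (exact permutation test, p = 0.0857, adjusted p = 0.129). For *Pdgfra* alone the difference in mean log2 CPM was 0.40 or 1.32-fold (exact permutation test, p = 0.171, adjusted p = 0.171). None of the 3 comparisons thus passed after adjustment. The collagen chains belong to the matrix output list, known to be higher in these mice when it was chosen. The p-values of the sum and of the ratio are therefore no independent evidence. With *Col1a1* alone over *Pdgfra* the difference was 0.99 (exact permutation test, p = 0.0857). With the 3 chains over the sum of *Pdgfra*, *Pi16*, *Dpp4* and *Clec3b* it was 0.82 (exact permutation test, p = 0.0571). These 2 alternatives were not adjusted, and the same limit holds for their p-values.

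**Figure D4:**
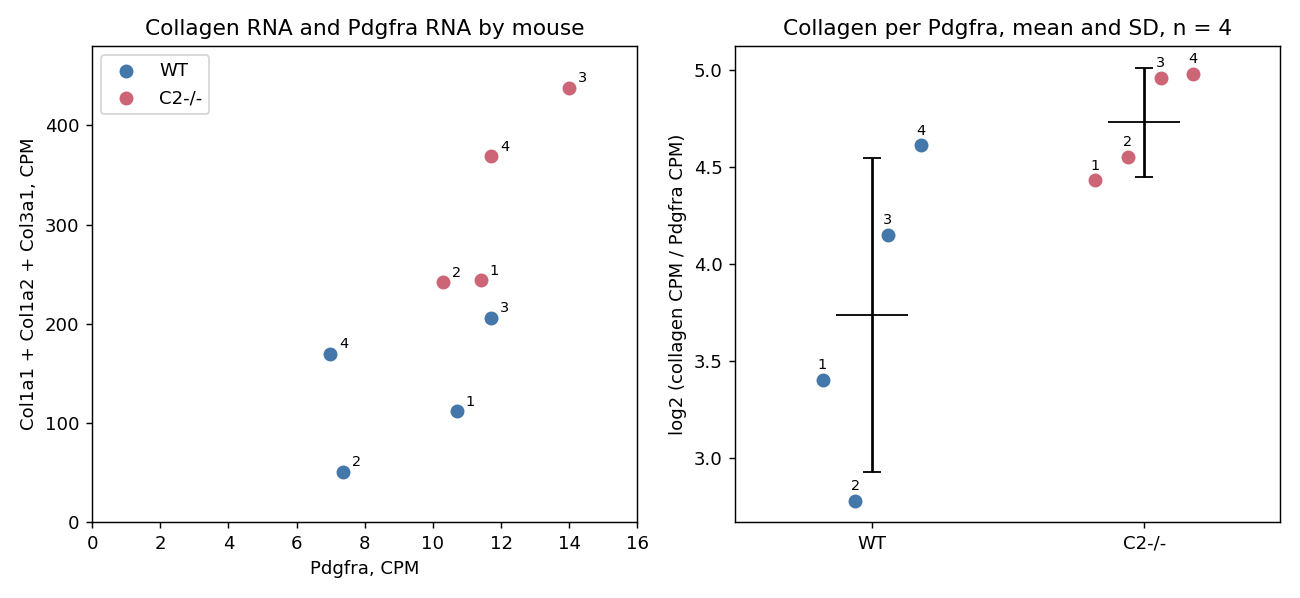
Left, summed CPM of *Col1a1*, *Col1a2* and *Col3a1* (y axis) against *Pdgfra* CPM (x axis), 1 numbered point per mouse; right, log2 of their ratio with the mean and SD of 4 mice. The collagen sum separates the groups (50.8 to 206 against 242 to 438 CPM), while WT replicates 1 and 3 have as much *Pdgfra* as knockouts and WT replicate 4 overlaps the knockouts in the ratio.

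Several markers are also expressed by other cells of the muscle, and markers of those cells were measured in the same libraries. Of 8 endothelial markers 5 had a higher and 3 a lower estimate, with a median log2 fold change of 0.02 and a summed level of 246 to 357 CPM in WT and 238 to 322 CPM in C2-/-. Of 7 mural cell markers, which share *Pdgfrb*, 6 had a higher estimate (median 0.28), with a sum of 370 to 549 CPM in WT and 515 to 602 CPM in C2-/-. *Cspg4*, the pericyte proteoglycan NG2, was at 4.3 to 9.34 CPM in WT and at 12.2 to 13.2 CPM in C2-/- (log2 fold change 0.70, SE 0.22, unadjusted p = 0.00884, edgeR). Of 7 tested tendon markers 6 had a higher estimate (median 1.11), and their sum was 59.5 to 195 CPM in WT and 99 to 273 CPM in C2-/-. *Tnmd*, the tendon membrane protein tenomodulin, had a log2 fold change of 1.43 (unadjusted p = 0.0264, edgeR). With the tendon level as a covariate the median of the FAP markers was 0.32 and 2 had an unadjusted p under 0.05, *Ly6a* and *Gsn*, against 5.64% of all genes in this fit.

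Of 6 tested haematopoietic markers 4 had a higher estimate and 2 a lower one, and *Cd79a* of B cells (higher) and *S100a8* (lower) had an unadjusted p under 0.05. At that threshold 3.38% of all tested genes were higher and 1.91% lower. The list had sums of 11 to 37.4 CPM in WT and 20.7 to 29.5 CPM in C2-/-. *S100a8*, a protein of neutrophils, was at 12.8 CPM in WT replicate 2 and at no more than 1.19 CPM in the other mice. *Kera* of the tendon list, *Cd3e* of the haematopoietic list, *Lep* of the adipocyte list and *Calcr* of the satellite cell list were each at 0 in at least 1 mouse, and no listed marker was at 0 in all 8. Satellite cell markers had a median of 0.04, Schwann cell markers −0.36 and fast fibre markers −0.08, none with an unadjusted p under 0.05. The part of these cells in the marker values was not tested.

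All 7 immediate early genes had a lower estimate in C2-/- (median −1.06, none with an unadjusted p under 0.05), and their sum was 149 to 1558 CPM in WT and 147 to 1011 CPM in C2-/-. Without the 3 mice in which they were high (WT replicates 2 and 4 and C2-/- replicate 2), the log2 fold changes were 0.15 for *Pdgfra*, 0.15 for *Pdgfrb* and 0.01 for *Cd34*. These were the smallest of the 10, and the others were 0.31 for *Ly6a*, 0.43 for *Pi16*, 0.61 for *Dpp4*, 0.66 for *Thy1*, 0.38 for *Smoc2*, 0.46 for *Gsn* and 0.42 for *Clec3b*. In these 5 mice 2 of 10 markers, *Pi16* and *Gsn*, had an unadjusted p under 0.05, against 4.6% of all genes tested in this fit, and the median of the 10 was 0.40. The matrix list had 10 of 11 genes at that threshold and a median of 0.74. Medians without the 3 mice were 0.20 for the 17 other mesenchymal genes, 0.45 for the activation genes, 0.07 for the PDGF ligands, 0.34 for the secreted factors, 0.45 for the adipocyte markers, 0.08 for the mural markers, 0.54 for the tendon markers, 0.53 for the haematopoietic markers and −0.30 for the endothelial markers. The log2 ratio of collagen to *Pdgfra* differed by 1.02 in the same mice, where 2 against 3 allow no p below 0.2 (exact permutation test, p = 0.2). Whether the state of these mice had a part in the marker values was not tested.

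The counts of several members carry limits of annotation. Intervals of other RefSeq genes, all noncoding models, overlap *Pdgfra*, *Ly6a*, *Cd34*, *Pi16*, *Smoc2* and *Gsn*. The sources do not state whether strand was used in counting. The closest other transcripts were *Ly6g* for *Ly6a* (82.3% identity over 938 bases) and *Gm26684* for *Cd34* (91% over 647 bases) and *AC162182.1* for *Pi16* (100% over 225 bases). *Pdgfrb*, *Dpp4*, *Thy1* and *Clec3b* had no overlapping gene.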

How the data were processed

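Bulk RNA from the TA muscle of 4 WT and 4 C2-/- mice was sequenced by the authors on a DNBSEQ platform after selection of polyadenylated RNA. Per the study's methods, reads were aligned with HISAT to GRCm38.p6 and counted with featureCounts; the submitters' processing notes also name Bowtie2 and DESeq2. The authors deposited expected counts per gene, not normalized, and 5.5% to 6.53% of a mouse's values are not whole; they were rounded before the tests. The authors also deposited TPM, used only to order levels between genes. Another 8 columns of values per mouse (FPKM) were not used, nor were the columns of the authors' own comparison (log2 fold change, p and q). Labels carry an age of 22 months and a second, lower age in the growth protocol.

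A gene ID and counts were present in 16686 of 16687 rows, and 24 of 33 symbols that were dates, numbers or duplicates were restored from IDs. Totals were 25425993 to 29747692 counts per mouse; the floor of 3 counts covers counting error only. Genotypes were compared by the quasi-likelihood test of edgeR 4.0.16 (R 4.3.3) with TMM factors (0.929 to 1.03), the default filter and Benjamini-Hochberg adjustment over 12542 genes. A call needed 1.5-fold and an adjusted p under 0.05. The study's methods name limma-voom, which was run as an alternative (limma 3.58.1), as was DESeq2 1.42.0. Log2 CPM used a prior count of 2. Single values were compared with two-sided exact permutation tests (scipy 1.17.1). Nothing in the labels states how the mice of a group were related. P-values set the difference between the genotypes against the spread between these mice.

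The markers and gene lists were chosen with earlier results of these data known. Named genes are all 10 markers, up to 3 genes of each list with the smallest p, and the 5 genes most like *Pdgfra*. *Fos*, *Igf1* beside *Il33*, *Acta2*, *Fap*, *Lox*, *Timp1*, *Runx1*, *Osr2*, *Tcf7l2*, *Cd3e*, *Kera*, *Lep*, *Calcr* and *Pparg* were added after their values were seen. Leaving out the mice high in immediate early genes, and their level as a covariate, were alternatives chosen after seeing the data. Similar transcripts were sought with blastn 2.17.0 in GENCODE vM21, and promoters came from RefSeq. The protein table was not used here. In simulated counts of 12406 genes, edgeR recovered 35 of 50 genes changed by a log2 fold of 1. Smaller changes, such as the marker median of 0.41, were not simulated, so this recovery does not apply to most markers.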

Additional observations from a re-analysis of the deposited data

Results flagged for a closer look

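*Clec3b* in C2-/- replicate 1 was far from the other knockouts, at 9.99 CPM against 13.3 to 13.6 CPM. The gap to the nearest mouse was 0.92 of the range of the group (above Dixon's 95% critical value for 4 samples). Among 22 groups of values examined this was the only one so marked, and chance marks about 1 group in 20. The mouse was nevertheless above every WT mouse for this gene.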

How the results depend on the processing

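No FAP marker was called under any of 20 alternative fits, and the lowest adjusted p of a member was 0.133 (*Gsn*, DESeq2). Of 200 member values 199 kept their direction and 1 turned, *Ly6a* at −0.04 without C2-/- replicate 3. The highest value of *Ly6a* was 0.60, with the tendon level as a covariate. With one mouse left out it reached 0.38 (without WT replicate 2). *Gsn* had an unadjusted p under 0.05 in 20 of 20 fits, *Clec3b* in 18, *Thy1* in 17 and *Pdgfrb* in 11. The count of markers with an unadjusted p under 0.05, 4 as reported, was 7 with the haematopoietic level as a covariate, 2 with the tendon level and 2 without the 3 mice high in immediate early genes. The share of all tested genes at that threshold was 5.29% as reported. It was 12.5% with the haematopoietic covariate, 5.64% with the tendon covariate and 4.6% without the 3 mice. With one mouse left out the marker count ranged from 2 (without C2-/- replicate 3) to 7 (without WT replicate 3). The share of all genes was 4.45% and 7.75% in those fits. Over all genes, 4 were called as reported, 38 by DESeq2, 17 with the haematopoietic covariate, 2 without the 3 mice, and 4 to 7 (7 without WT replicate 2) with one mouse left out. Genes with an unadjusted p under 0.05 numbered 663 as reported, 1571 with the haematopoietic covariate and 432 with the immediate early level as a covariate; the cause was not tested. The difference in collagen per *Pdgfra* lay between 0.68 (without WT replicate 2) and 1.29 (without WT replicate 4) with one mouse left out.

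The labels do not state whether mice with the same replicate number were paired. Deviations of mice with the same number correlated at 0.27, 0.04, −0.05 and 0.02, and those with different numbers at −0.23 to 0.2. Such correlations cannot decide whether the mice were paired. With the replicate number as a block, 6 markers and 5.26% of all tested genes had an unadjusted p under 0.05, and 4 genes were called. Collagen per *Pdgfra* differed by 1.0 in that setting (exact permutation test, p = 0.125, the smallest that 4 pairs allow). With 4 mice per group, differences of the size seen in most markers were not resolved after adjustment over all genes, and *Dpp4*, at 30 to 68 counts per mouse, has the least depth behind it.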
